A study of Homo sapiens with 6 samples.

Results

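The Notch genes examined here were 10 of the 19775 genes measured on the arrays: the receptors NOTCH1, NOTCH2 and NOTCH3, the ligands JAG1, JAG2 and DLL1, the glycosyltransferase LFNG, the coactivator MAML2 and the target genes HES1 and HEY1. They were chosen by name, with earlier results of these data known. Every probe set (a group of short probes read as 1 value) that the platform annotation gives only that gene symbol was taken. This gave 27 of 54613 probe sets. One further probe set, 227067_x_at, carried 5 symbols, NOTCH2 and 4 of its NOTCH2NL relatives, and was left out. The cells were MDA231-LM2, a lung metastatic derivative of the human breast cancer line MDA-MB-231. RNA came from 3 oncosphere cultures, grown without serum for 4 days on ultra-low adhesive plates in HuMEC medium to which bFGF at 10 ng/ml, EGF at 20 ng/ml, 2% B27 and insulin at 5 μg/ml had been added, and from 3 monolayer cultures, grown attached in DMEM GlutaMAX with 10% fetal bovine serum and taken 48 h after a change of medium. Attachment, basal medium, serum, insulin, B27, growth factors and time in culture differed together between the groups. Their parts in any difference cannot be told apart. All values are from 1 cell line, and in such bulk RNA a change in the share of cells that express a gene and a change in RNA per cell cannot be told apart.

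Notch receptors are membrane proteins that are cut when a Jagged or Delta-like ligand on a neighbouring cell pulls on them. The ADAM10 or ADAM17 protease makes the outer cut and the gamma-secretase complex the inner one, and the freed intracellular domain joins the DNA-binding protein RBPJ and a Mastermind-like coactivator to switch on genes such as HES1 and HEY1, which encode repressors. Fringe enzymes such as LFNG add sugars to the receptors and alter which ligand they answer to. In the mammary gland and in breast cancer the pathway is known for its role in cell fate and in cells with stem cell properties, and sphere culture is used to enrich such cells.

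In oncospheres, RNA of both target genes, of the Jagged ligands, of LFNG and of MAML2 was higher than in monolayer. This was so by each of their probe sets above the median probe set. NOTCH3 was called higher by 1 of its 2 probe sets and not called by the other. NOTCH2 was called lower by 2 of its 4 probe sets and not called by the other 2. NOTCH1 and DLL1 were not called in either direction. By the brightest probe set of each gene, 7 of the 10 genes rose, 0 fell and 3 were not called at an adjusted p below 0.05 (limma, Benjamini-Hochberg adjustment over all probe sets). Over all 19775 genes represented in the same way, 17.3% rose and 17.5% fell. Since earlier results were known when the 10 genes were chosen, this comparison is not an independent test. The rises by the brightest probe set ran between 1.84-fold for JAG2 and 2.71-fold for HEY1. Of the 27 probe sets, 15 were called higher, 2 lower and 10 not called, against 14.5% of all probe sets called higher and 14.2% called lower. All of these calls were among the 21 Notch probe sets above the median probe set. Brightness was the mean log2 intensity over all 6 arrays, so oncosphere values alone can place a probe set above that median (113.4). For NOTCH3 203238_s_at the group means were 231 in oncospheres and 109 in monolayer. The shares over all probe sets include dim ones. Another fit kept only probe sets above the median on at least 3 arrays, which can be the oncosphere arrays alone. With dim probe sets left out in this way, 15 Notch probe sets were still called higher and 2 lower, against 7265 and 7570 of 28168 probe sets. In 16 of the 27 all oncosphere arrays lay above all monolayer arrays, and in 3 all lay below, against 19.9% and 21.7% of all probe sets. The median log2 change was 0.38 over the 27 probe sets and 1.09 over the brightest probe sets of the 10 genes, against -0.016 over all probe sets and -0.020 over all genes. Intensities are in arbitrary units and can be compared between arrays for 1 probe set, but not between probe sets.

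**Figure D1:**
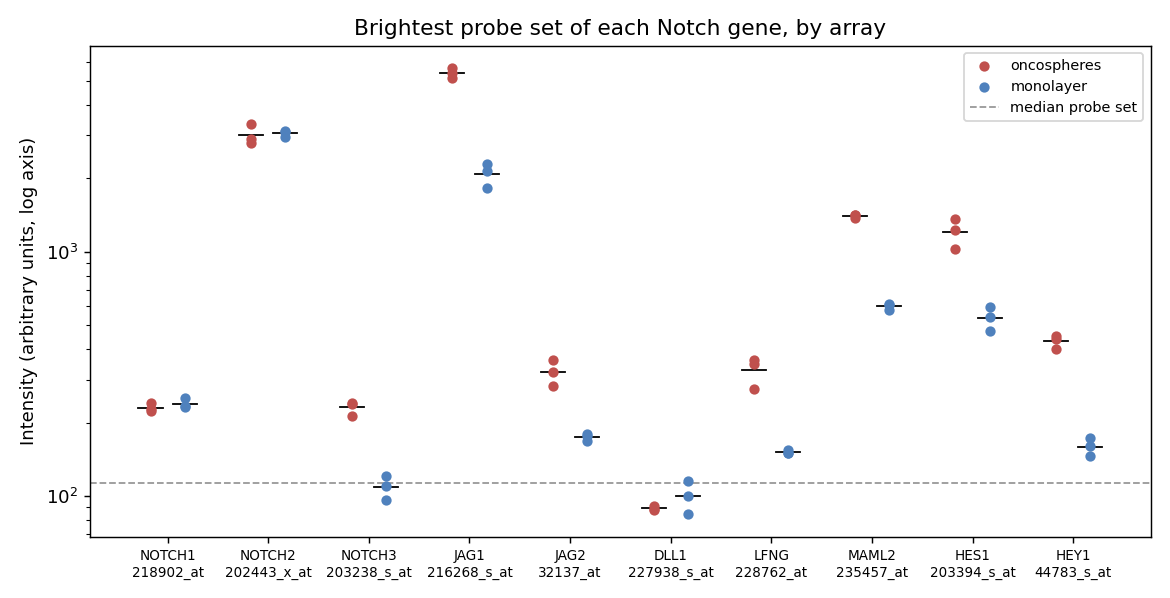
Intensity (arbitrary units, log axis) of the brightest probe set of each Notch gene on the 3 oncosphere arrays (red, left) and the 3 monolayer arrays (blue, right), with bars at the group means and a dashed line at the median probe set (113.4). All 3 oncosphere arrays lie above all 3 monolayer arrays for NOTCH3, JAG1, JAG2, LFNG, MAML2, HES1 and HEY1, and the groups overlap for NOTCH1, NOTCH2 and DLL1.

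Pairs of arrays from 1 group correlated at 0.993 to 0.996 (Pearson, over probe sets, which are not independent replicates), and pairs from different groups at 0.966 to 0.973. Of the variance, 79.1% lay on a first principal component along which the groups were apart. Among the 15 probe sets called higher, oncospheres 2 was the lowest of the 3 oncosphere arrays in 12 and oncospheres 1 the highest in 11, while for the monolayer arrays no array was lowest in more than 7. All 6 genes listed as present in MDA-MB-231 were well above the median probe set, with group means of 689 to 20819 in oncospheres and 1171 to 20145 in monolayer. Of these, VIM and CD44 were not called, and KRT18, KRT8, EGFR and CAV1 were lower in oncospheres, with log2 changes between -0.78 and -0.32. Of the genes listed as low, ESR1, PGR and CDH1 lay at group means between 70.7 and 130.3, near the median probe set or below it. EPCAM, ERBB2 and GATA3, also known to be low in that line, were at 399 to 444 in oncospheres and 342 to 561 in monolayer. EPCAM was called lower in oncospheres (log2 change -0.34, adjusted p = 0.0145 by limma), and the rest of the genes listed as low were not called. Of the markers of other cell types, 1 of 4 endothelial genes (PECAM1), 1 of 3 leukocyte genes (CD14) and 2 of 4 fibroblast genes (LUM and COL3A1) were higher in oncospheres. Group means in oncospheres and in monolayer were 568 and 188 for PECAM1 and 193 and 134 for CD14. They were 196 and 70.8 for LUM and 444 and 103 for COL3A1. Other measured markers of these cell types were not called. The endothelial genes VWF and CDH5 and the leukocyte gene PTPRC stayed at group means of 70.0 to 96.6 in both groups, below the median probe set, and the fibroblast gene DCN had a mean of 115 in each. What part these genes had in the Notch values was not tested.

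HES1, a repressor of the basic helix-loop-helix family and the classic target of Notch, rose by both of its probe sets that lay above the median probe set. By the brightest one, 203394_s_at, the intensity was 1233, 1358 and 1027 on oncosphere arrays 1, 2 and 3, against 543, 476 and 592 on the monolayer arrays. The lowest oncosphere array was thus well above the highest monolayer array. The rise was 2.24-fold (log2 change 1.16, SE 0.12, adjusted p = 1.84e-04 by limma). By 203395_s_at, shown because its change was the largest of the 27 although it was not picked by the rule for named probe sets, the intensity was 1305, 814 and 1263 in oncospheres, against 273, 237 and 251 in monolayer. That rise was 4.36-fold (log2 change 2.12, SE 0.17, adjusted p = 5.76e-05 by limma), and only 0.192% of all probe sets had a larger increase. The probe sets disagreed on oncospheres 2, which was the highest of the oncosphere arrays by 203394_s_at and the lowest by 203395_s_at. Without that array the log2 changes were 1.07 and 2.34. The remaining HES1 probe set, 203393_at, was dim on all arrays, with 74.3, 72.6 and 72.2 in oncospheres against 72.4, 73.4 and 61.5 in monolayer, and did not pass the test (adjusted p = 0.497 by limma, log2 change 0.085, SE 0.077).

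HEY1, a repressor related to HES1 and also a direct Notch target, showed the largest rise among the brightest probe sets. By 44783_s_at its intensity was 453, 402 and 439.9 in oncospheres, against 145, 172 and 161 in monolayer. The rise was 2.71-fold (log2 change 1.44, SE 0.080, adjusted p = 1.14e-05 by limma). The second probe set, 218839_at, moved the same way, with means of 277 ± 17.7 in oncospheres and 138 ± 6.92 in monolayer (SD, n = 3 each), a rise of 2.00-fold (log2 change 1.00, SE 0.070, adjusted p = 3.13e-05 by limma). Both groups were well separated by both probe sets. The monolayer values were not far above the median probe set of 113.4. When the 5th percentile of each array was subtracted first, the log2 changes were 1.96 and 1.53.

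The sequence at the start of HES1 is shown because it is the textbook binding region of RBPJ, the DNA-binding partner of Notch. Windows of 300 bases, with 250 before and 50 from the annotated start of transcription onwards, were taken from RefSeq (GRCh38.p14) for 8 of the 10 genes, with 2 windows for LFNG, and DLL1 and HEY1 are named only. They were searched on both strands for TGGGAA, the core of the RBPJ site, for its weaker form TGTGAA, and for CACNAG, the N box bound by HES repressors. In HES1, TGGGAA began 84 and 70 bases before the start, TGTGAA lay on the opposite strand from 62 bases before the start, and 4 N boxes were found, 1 of which overlapped the TGTGAA match. Capitals mark the matches to TGGGAA and TGTGAA, which on the opposite strand read TTCCCA and TTCACA.
HES1 (chr3:194135898-194136197, plus strand): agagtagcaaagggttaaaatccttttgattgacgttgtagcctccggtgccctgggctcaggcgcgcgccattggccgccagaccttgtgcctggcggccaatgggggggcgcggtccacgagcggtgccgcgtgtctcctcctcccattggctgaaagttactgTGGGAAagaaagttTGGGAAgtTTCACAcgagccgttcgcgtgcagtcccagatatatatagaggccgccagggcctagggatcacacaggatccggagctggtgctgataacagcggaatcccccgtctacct

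The same search found TGGGAA in 3 of the 9 windows, those of HES1 and both starts of LFNG, and TGTGAA in 1 and the N box in 6 of the 9. Over all 35116 RefSeq start windows of this length, TGGGAA was in 24.0%, TGTGAA in 13.1% and the N box in 38.0%. In LFNG, whose rise is given below, a match began 5 bases before the first start, on the opposite strand, and 248 bases before the second. Of 8 other known targets with a window, 4 held TGGGAA: HEY2 and HES4, which were called higher in oncospheres, and HES5 and HEYL, which were not called. NRARP, also called higher, held neither RBPJ form. HES4, a relative of HES1, held TGGGAA 76 bases before its start and, like HES5, 1 TGTGAA on the opposite strand, and is printed to set beside HES1. Capitals again mark the matches. A match is a run of letters and not evidence of binding, and its absence from a window says nothing of sites elsewhere.
LFNG, first start (chr7:2512279-2512578, plus strand): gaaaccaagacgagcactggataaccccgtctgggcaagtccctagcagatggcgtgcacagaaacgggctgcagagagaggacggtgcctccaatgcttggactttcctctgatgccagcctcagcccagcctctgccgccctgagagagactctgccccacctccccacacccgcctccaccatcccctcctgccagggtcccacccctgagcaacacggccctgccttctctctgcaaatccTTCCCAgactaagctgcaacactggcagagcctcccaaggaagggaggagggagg
LFNG, second start (chr7:2517613-2517912, plus strand): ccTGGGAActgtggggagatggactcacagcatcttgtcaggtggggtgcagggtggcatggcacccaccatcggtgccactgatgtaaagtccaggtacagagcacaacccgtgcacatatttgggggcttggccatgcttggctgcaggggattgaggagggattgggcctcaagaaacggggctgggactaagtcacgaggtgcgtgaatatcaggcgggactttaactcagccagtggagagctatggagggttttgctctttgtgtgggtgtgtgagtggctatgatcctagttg
HES4 (chr1:1000048-1000347, minus strand): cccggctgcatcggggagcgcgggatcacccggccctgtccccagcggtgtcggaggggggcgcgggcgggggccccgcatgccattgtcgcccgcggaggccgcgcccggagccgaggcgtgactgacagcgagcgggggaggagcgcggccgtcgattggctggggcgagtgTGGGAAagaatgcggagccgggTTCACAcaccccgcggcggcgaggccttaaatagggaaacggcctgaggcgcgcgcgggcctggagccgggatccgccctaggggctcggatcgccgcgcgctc

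**Figure D2:**
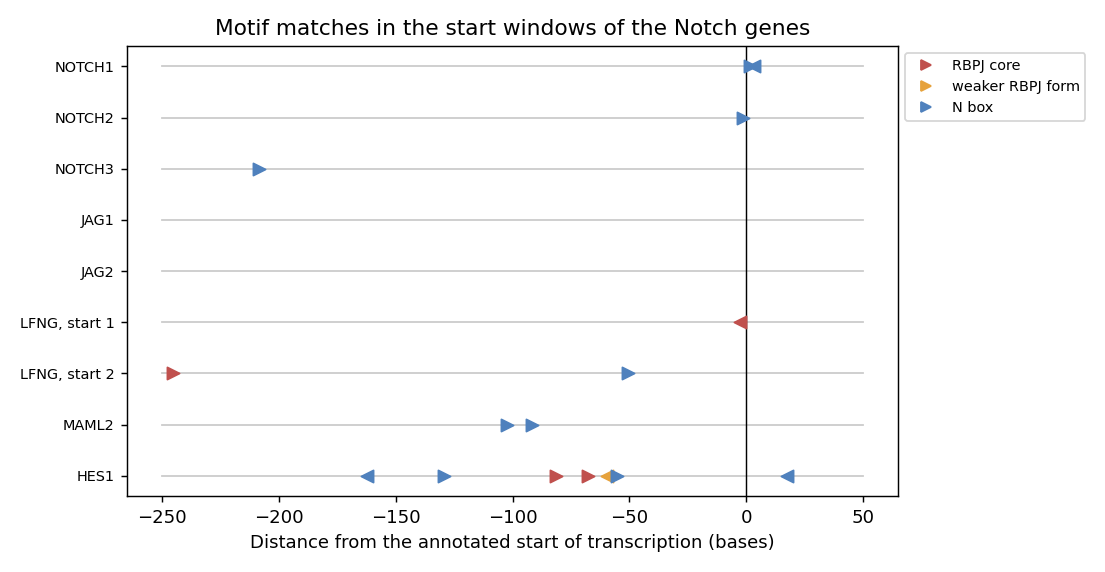
Positions of motif matches from 250 bases before to 50 bases after the annotated start of transcription (vertical line) in the 9 windows of 8 Notch genes, with arrows pointing right for the strand of the gene and left for the opposite strand. HES1 holds 2 matches to the RBPJ core and 1 to the weaker form within 84 bases of its start, and the windows of JAG1 and JAG2 hold no match to any of the 3 motifs.

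Of the ligands, JAG1 and JAG2 rose. JAG1, a Jagged ligand that is presented to neighbouring cells, had 6 probe sets, and the 4 brightest were all called higher. By 216268_s_at the intensity was 5642, 5146 and 5408 in oncospheres, against 2138, 1820.2 and 2289 in monolayer. This was a rise of 2.60-fold (log2 change 1.38, SE 0.090, adjusted p = 2.26e-05 by limma), and only 0.817% of all probe sets had a larger increase. The other called JAG1 probe sets, 209099_x_at, 231183_s_at and 209098_s_at, had rises of 2.52-fold, 2.31-fold and 2.20-fold, with adjusted p between 1.88e-05 and 1.68e-04 (limma), and the groups did not overlap in any of them. The other two JAG1 probe sets were dim. By 229924_s_at the intensity was 109, 105 and 124 in oncospheres, against 109, 118 and 109 in monolayer, and by 209097_s_at it was 98.5, 84.1 and 96.3 in oncospheres, against 97.1, 107 and 112 in monolayer. Neither was called (log2 changes of -0.00085 and -0.18, adjusted p = 0.996 and 0.159 by limma), and the group means of both lay below the median probe set of 113.4.

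JAG2, the second Jagged ligand, was called higher by both probe sets. The brighter, 32137_at, read 361, 281 and 324 in oncospheres, against 176, 179.5 and 168 in monolayer, with no overlap between groups. Its rise was 1.84-fold (log2 change 0.88, SE 0.092, adjusted p = 2.24e-04 by limma). By 209784_s_at the means were 219.6 ± 18.7 in oncospheres and 168 ± 5.74 in monolayer (SD, n = 3 each), a rise of 1.31-fold (adjusted p = 0.00511 by limma). The sizes of the changes by the 2 probe sets differed, while the direction was shared.

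DLL1, a Delta-like ligand, lay between the 5th percentile of the arrays (63.8 to 64.8) and values around the median probe set. By 227938_s_at its intensity was 91.0, 88.3 and 88.0 in oncospheres, against 116, 84.3 and 99.8 in monolayer, and by 224215_s_at it was 87.9, 85.9 and 89.9 in oncospheres, against 79.1, 81.7 and 78.2 in monolayer. The probe sets differed in sign (log2 changes of -0.15 and 0.14) and neither was called (adjusted p = 0.357 and 0.0908 by limma). The groups overlapped by 227938_s_at, while by 224215_s_at all oncosphere arrays lay above all monolayer arrays. When the 5th percentile of each array was subtracted, 224215_s_at was called higher (log2 change 0.54, adjusted p = 0.00744).

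**Figure D3:**
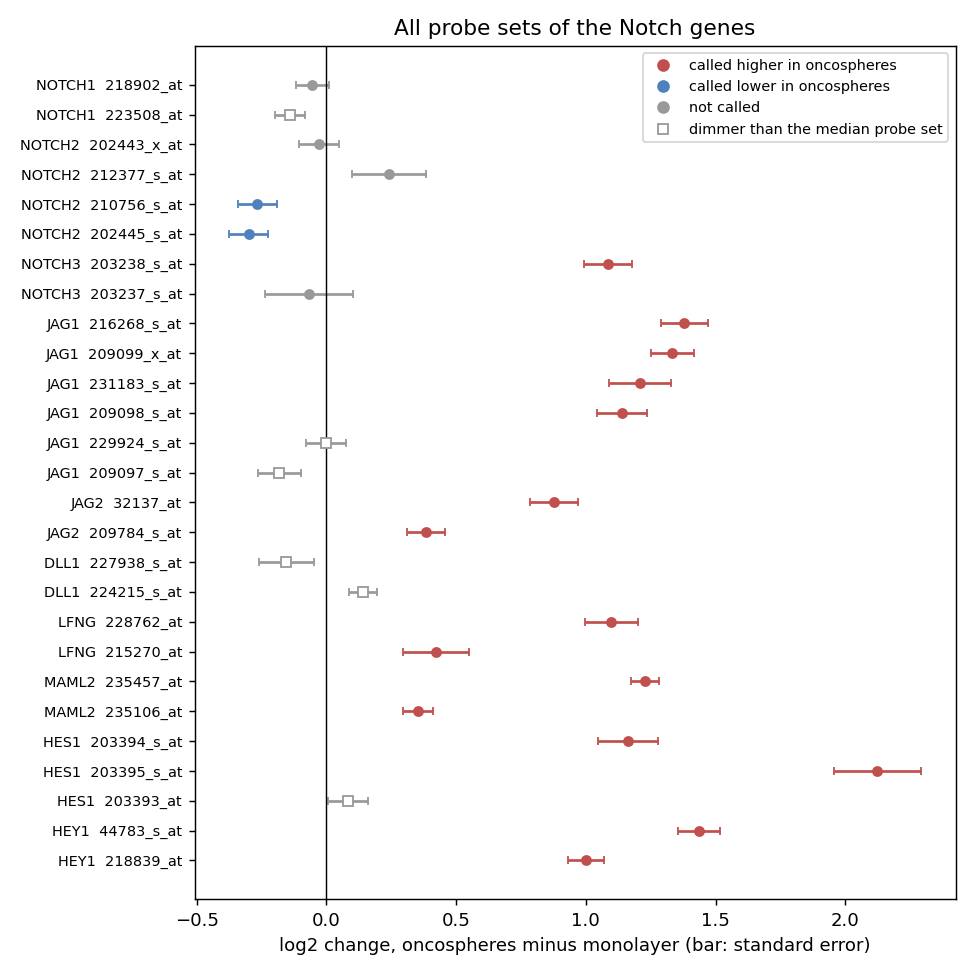
The log2 change, oncospheres minus monolayer, with its standard error for each of the 27 probe sets of the 10 Notch genes, red where called higher, blue where called lower and grey where not called, with open squares for probe sets dimmer than the median probe set. The 15 calls of an increase reach up to 2.12 for HES1, the 2 calls of a decrease are both of NOTCH2 at -0.27 and -0.30, and none of the 6 dim probe sets was called.

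Among the receptors, NOTCH3 was the one with a rise. By 203238_s_at its intensity was 238, 214 and 241 in oncospheres, against 121, 109.8 and 96.3 in monolayer. The groups were clearly apart, and the rise was 2.12-fold (log2 change 1.09, SE 0.093, adjusted p = 8.39e-05 by limma). The monolayer values were at the level of the median probe set, and the log2 change was 1.94 when the 5th percentile of each array was subtracted. The other NOTCH3 probe set, 203237_s_at, gave 173, 139 and 104 in oncospheres, against 159.7, 138 and 131 in monolayer. It varied widely among the oncosphere arrays, the groups overlapped, and it missed the threshold (adjusted p = 0.83 by limma, log2 change -0.067, SE 0.17). With the mean of both probe sets in place of the brightest, NOTCH3 was still called higher, with a log2 change of 0.51.

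NOTCH1, the receptor whose activating mutations are known from T-cell leukaemia, was not called by either probe set. By 218902_at its intensity was 227, 224 and 239.8 in oncospheres, against 231, 234 and 253 in monolayer, and the groups overlapped. The log2 change was -0.054 (SE 0.062, adjusted p = 0.605 by limma). By the dimmer 223508_at the oncosphere arrays lay below the monolayer arrays, with means of 96.3 ± 2.21 in oncospheres and 106 ± 4.71 in monolayer (SD, n = 3 each), but the difference did not pass the test (adjusted p = 0.123 by limma, log2 change -0.14, SE 0.059).

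NOTCH2, a receptor closely related to NOTCH1, had 4 probe sets that differed in call and sign. By 202443_x_at its intensity was 2785, 3325 and 2902 in oncospheres, against 2961, 3087 and 3127 in monolayer, and by 212377_s_at it was 1792, 2085 and 1880.1 in oncospheres, against 1924, 1282 and 1724 in monolayer. The groups overlapped in both and neither was called (log2 changes of -0.029 and 0.24, adjusted p = 0.834 and 0.268 by limma). By 210756_s_at the intensity was 388, 466 and 415 in oncospheres, against 516, 493 and 512 in monolayer, and by 202445_s_at it was 134, 144 and 122 in oncospheres, against 159, 161 and 172 in monolayer. There all oncosphere arrays lay below all monolayer arrays, and both were called lower, by 1.20-fold and 1.23-fold (log2 changes of -0.27 and -0.30, adjusted p = 0.032 and 0.0179 by limma). Fits that left out 1 array called fewer of all probe sets, and neither call held in each of them. That of 210756_s_at was lost without oncospheres 1 or 3 or any monolayer array (adjusted p between 0.0597 and 0.105) and with the replicate number as a block (0.0525), and that of 202445_s_at without oncospheres 1, oncospheres 3 or monolayer 3 (0.05001, 0.0561 and 0.0659). Subtraction of the 5th percentile of each array also ended both (0.0782 and 0.0598), and cyclic loess the first (0.0533). The log2 changes stayed negative in every alternative fitted for these probe sets, between -0.34 and -0.20 for 210756_s_at and between -0.53 and -0.24 for 202445_s_at. NOTCH2 and the NOTCH2NL genes are near-identical over part of their length, so probe sets of the _x_at and _s_at kinds, which can match several transcripts, are uncertain for NOTCH2. All calls of HES1, JAG1 and NOTCH3 were also by probe sets of these kinds, and without them 4 genes were called higher, JAG2, LFNG, MAML2 and HEY1, in place of 7.

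LFNG, the fringe enzyme that elongates a sugar on the receptors in the Golgi, was called higher by both probe sets. By 228762_at its intensity was 360.0, 274 and 347 in oncospheres, against 150.0, 155 and 150.5 in monolayer. The monolayer arrays were close together and all oncosphere arrays lay above them, and the rise was 2.14-fold (log2 change 1.10, SE 0.10, adjusted p = 1.20e-04 by limma). By the dimmer 215270_at the rise was 1.34-fold (log2 change 0.42, SE 0.13, adjusted p = 0.039 by limma). That second call was lost without oncospheres 1 (adjusted p = 0.124), oncospheres 3 (0.0843), monolayer 1 (0.0556) or monolayer 3 (0.10), and with the 5th percentile subtracted (0.168), with log2 changes between 0.29 and 0.86 over all alternatives fitted for it.

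MAML2, a Mastermind-like protein that bridges the cleaved receptor and RBPJ to histone acetyltransferases, had the smallest adjusted p of the 27 probe sets. By 235457_at the intensity was 1416, 1375 and 1411 in oncospheres, against 579, 612 and 604 in monolayer. The arrays of each group differed little, and the rise was 2.34-fold (log2 change 1.23, SE 0.054, adjusted p = 4.31e-06 by limma). The dimmer 235106_at rose 1.28-fold (log2 change 0.35, SE 0.056, adjusted p = 0.00199 by limma), with means of 166 ± 5.39 in oncospheres and 130.1 ± 3.48 in monolayer (SD, n = 3 each).

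The other genes of the pathway were taken from 7 lists written from textbook knowledge, with earlier results of these data known. Of these lists, 60 genes were analysed here, each by a probe set with 1 symbol. Of these 60 genes, 21 rose, 8 fell and 31 were not called, against 17.3% of all genes called higher and 17.5% called lower. Their median log2 change was 0.11. The shares over all genes include many dim ones. With dim probe sets left out, 20 of the pathway genes were called higher and 8 lower. Not all of the 60 genes were kept in that fit (HES5 was not), so these counts are not out of 60. In that fit, counted by probe set, 7265 of 28168 were called higher and 7570 lower. In the list of the cleavage step, 5 of 7 genes rose and 0 fell. NCSTN, the subunit of gamma-secretase that receives the substrate, had an intensity of 1118, 1019 and 1128 in oncospheres, against 466, 559 and 594 in monolayer. There was no overlap with the monolayer arrays, and the log2 change was 1.02 (SE 0.096, adjusted p = 1.32e-04 by limma). ADAM17, a protease of the outer cut, had a log2 change of 0.63, and the gamma-secretase subunits APH1B and PSEN2 ones of 0.46 each. The fifth was ADAM10, the protease best known for the ligand-dependent outer cut, with a log2 change of 0.35, named after its value was seen. The adjusted p of these 5 genes lay between 1.18e-04 and 0.00812 (limma). APH1A and PSENEN, also gamma-secretase subunits, did not pass the test (log2 changes 0.000035 and 0.39, adjusted p = 1.0 and 0.219 by limma), and PSENEN varied between 747 and 1394 among the monolayer arrays. The median log2 change of the cleavage list was 0.46, against -0.020 over all genes.

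In the nuclear complex, 3 of 8 genes rose and 0 fell, against 17.3% of all genes called higher and 17.5% called lower. MAML3 and MAML1, the relatives of MAML2, had log2 changes of 0.65 and 0.52, and the histone acetyltransferase KAT2B one of 0.44, with adjusted p of 0.00592, 0.00219 and 4.37e-04 (limma). MAML1 intensity was 1316, 1567 and 1307 in oncospheres, against 922, 962 and 1026 in monolayer, without overlap. RBPJ itself had an intensity of 3415, 3018 and 3623 in oncospheres, against 2605, 2503 and 3056 in monolayer. It narrowly missed the threshold by its brightest probe set (log2 change 0.30, SE 0.097, adjusted p = 0.0502 by limma), and oncospheres 2 lay below monolayer 3. Of the corepressors that act with RBPJ when Notch is off or with HES proteins, 3 of 9 rose and 2 fell. The shares over all genes are those given above. TLE1 (log2 change -0.51) and HDAC2 (-0.37) fell, and TLE3 (0.31) and CTBP2 (0.30) rose.

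Of the 10 other target genes, 3 rose, 2 fell and 5 were not called, against 17.3% of all genes called higher and 17.5% called lower. Calls in this list thus went both ways. HEY2, a relative of HEY1, had an intensity of 109.7, 116 and 111 in oncospheres, against 81.4, 68.7 and 88.9 in monolayer, a log2 change of 0.50 (SE 0.094, adjusted p = 0.00434 by limma) around or below the median probe set. HES4, whose start window is printed above, had an intensity of 273, 286 and 273 in oncospheres, against 206, 213 and 213 in monolayer (log2 change 0.40, adjusted p = 9.19e-04 by limma). The third was NRARP, a feedback inhibitor that binds the Notch transcription complex, with a log2 change of 0.34 and an adjusted p of 0.0122, and it was named after its value was seen. MYC and CCND1, which drive growth and the G1 phase and answer to many pathways besides Notch, fell. MYC intensity was 1607, 1594 and 1627 in oncospheres, against 3213, 3287 and 3260.1 in monolayer, a fall to a level 2.02-fold lower (log2 change -1.02, SE 0.052, adjusted p = 7.53e-06 by limma), and CCND1 had a log2 change of -0.36. HES2, HES5, HES6, HES7 and HEYL were not called.

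**Figure D4:**
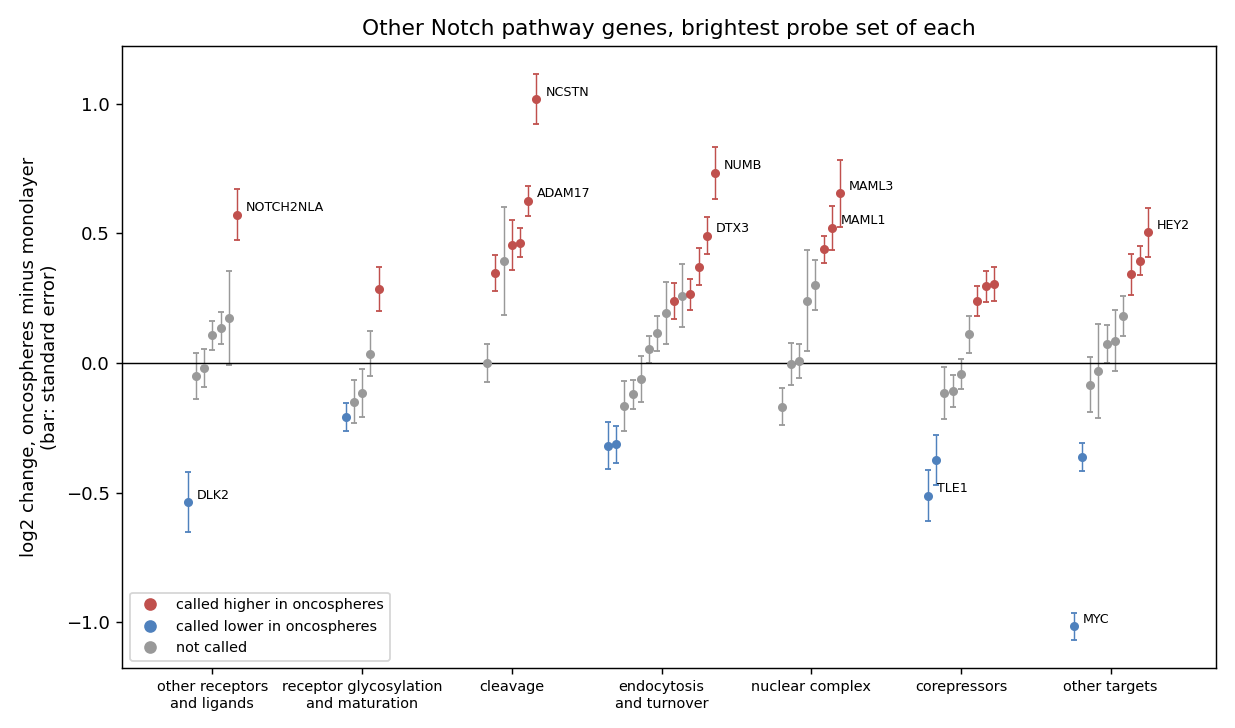
The log2 change, oncospheres minus monolayer, with its standard error for the brightest probe set of each of 60 other Notch pathway genes in 7 lists, red where called higher, blue where called lower and grey where not called, with names for called changes over 0.48 in size. The cleavage list has 5 red points and no blue one, led by NCSTN at 1.02, and MYC at -1.02 is the lowest point.

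Genes of endocytosis and turnover, which decide how long receptor and ligand stay at the membrane, gave 5 higher, 2 lower and 7 not called of 14. For this list and the others below, the shares over all genes were 17.3% called higher and 17.5% called lower. NUMB, an adaptor that inhibits Notch by directing it to endosomes, had an intensity of 198, 192 and 161 in oncospheres, against 98.7, 116 and 117 in monolayer. Its log2 change of 0.73 (SE 0.10, adjusted p = 8.76e-04 by limma) was the largest of this list. DTX3, of the Deltex family, had a log2 change of 0.49, the ligand-activating ubiquitin ligase MIB2 one of 0.37, and DTX2 fell by 0.32 on the log2 scale. Of the 5 genes for receptor glycosylation and maturation, 1 rose, the fringe enzyme RFNG (log2 change 0.29), and 1 fell, POGLUT1, which adds glucose to the receptor repeats (log2 change -0.21). The third fringe, MFNG, was not called, at 115 ± 13.2 in oncospheres and 124 ± 6.91 in monolayer (SD, n = 3 each). Among the other receptors and ligands, NOTCH2NLA, a truncated relative of NOTCH2, was called higher (log2 change 0.57), and its value is uncertain because of its near-identical copies. DLK2, a Delta-like protein without the domain that activates the receptor, fell by 0.54, and NOTCH4, DLL3, DLL4, DLK1 and DNER were not called.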

How the data were processed

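The data were 6 Affymetrix Human Genome U133 Plus 2.0 arrays, 3 of oncospheres and 3 of monolayer, each made from 100 ng of total RNA. Each deposited value was a linear intensity of 1 probe set, which the authors had normalized by robust multi-array averaging. The submitters' processing notes named affy. Its version is not given in the sources used here. The test had been planned for log2 values, so log2 was taken first. Values lay between 48.0 and 24529, array medians between 112.6 and 114.1, and changes close to the low end are uncertain in size. Precision is limited by the number of arrays.

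After 62 control probe sets were left out, 54613 were fitted with limma 3.58.1 in R 4.3.3 (linear model, empirical Bayes, Benjamini-Hochberg adjustment over all of them), as in the methods of the study, and called at an adjusted p below 0.05. The procedure was run on simulated data with independent noise and far fewer changed probe sets than were called here. That run does not test the calls reported. The spread behind the p-values is that between cultures of 1 line, labelled biological replicates. Platform annotation gave 41091 probe sets 1 symbol, 1801 several and 11721 none, and the 27 of the Notch genes matched the RefSeq gene table of GRCh38.p14 by gene identifier. A gene outside the 10 was represented by its brightest probe set. Array values are given for the brightest probe set of each Notch gene and for others that differ from it in call or sign. Of each other list, up to 4 called genes of largest change were named, and the last place went to the direction with fewer calls. The genes and lists were chosen with earlier results of these data known. Start windows were searched in Python 3.11.15.

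Alternative fits left out 1 array at a time, dim probe sets, or probe sets of the _x_at and _s_at kinds. Others used cyclic loess, a repeated quantile normalization, centring on array medians, a prior with an intensity trend made robust, subtraction of the 5th percentile of each array (values under 16 set to 16), weights for array quality, the replicate number as block, a threshold of 0.01, or a mean over the probe sets of each gene. The replicate numbers were not taken as pairs, since nothing in the labels says that a number marks a shared day or batch.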

Additional observations from a re-analysis of the deposited data

How the results depend on the processing

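Of the 15 Notch probe sets called higher, 14 were called higher in every alternative fit that held all kinds of probe sets, the exception being LFNG 215270_at. Counts of Notch probe sets called higher ran from 14 to 15 and of those called lower from 0 to 2 when each array was left out in turn, against 15 and 2 in the fit as reported. For the other pathway genes these counts ran from 18 to 21 higher and from 5 to 8 lower, against 21 and 8, and for all probe sets from 6562 to 7738 higher and from 6183 to 7603 lower, against 7941 and 7740. Notch probe sets called lower numbered 1 with cyclic loess, 1 with the replicate block, and 0 with the 5th percentile subtracted or at an adjusted p below 0.01. At that stricter threshold 16 other pathway genes were called higher and 4 lower, and 5435 of all probe sets were called higher and 5025 lower. With a mean over the probe sets of each gene, 17 other pathway genes were called higher and 7 lower. Without _x_at and _s_at probe sets, which removes 18 of the 27 Notch probe sets and all of those of 4 genes, 6 Notch probe sets, of JAG2, LFNG, MAML2 and HEY1, were called higher and 0 lower, the one HES1 probe set that was kept was not called, 4 other pathway genes were lower, and 5144 of all probe sets were higher and 4347 lower. With the replicate block 15 Notch probe sets were called higher. The samples share only a number, with correlations of deviations of 0.0685, 0.0822 and 0.089 for equal numbers, each the highest for its array.

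The sign turned only in probe sets that were not called. NOTCH2 202443_x_at had log2 changes of 0.053 with cyclic loess and between -0.10 and 0.023 with 1 array left out (positive without oncospheres 1). NOTCH3 203237_s_at had -0.24 to 0.13 with 1 array left out (0.13 without oncospheres 3 and 0.016 without monolayer 1). JAG1 229924_s_at had 0.0027 with cyclic loess, 0.0012 with the 5th percentile subtracted, 0.022 with array quality weights and -0.072 to 0.049 with 1 array left out (positive without oncospheres 1, oncospheres 2 or monolayer 2). The cause was not tested. With the mean of all probe sets, the 7 genes called higher were still called, with log2 changes from 0.51 for NOTCH3 to 1.22 for HEY1. With the 5th percentile subtracted, log2 changes were larger in size for probe sets above the median probe set, among them NOTCH3 203238_s_at (1.94), HEY1 44783_s_at (1.96) and 218839_at (1.53), LFNG 228762_at (1.58) and 215270_at (0.86, no longer called), MAML2 235106_at (0.64) and JAG2 209784_s_at (0.58), and for probe sets below it, among them DLL1 224215_s_at (0.54, now called), JAG1 209097_s_at (-0.53) and NOTCH1 223508_at (-0.37).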
